A study of Mus musculus with 9 samples.

Results

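Immature Neutrophils II and Immature Neutrophils III are 2 of the 17 cell populations that were separated in single-cell RNA-Seq of mouse bone marrow. Their members here are all entries that the deposited table of top marker genes gives under these names. Immature Neutrophils II (called cluster II below) had 15 entries and Immature Neutrophils III (cluster III) had 6, which makes 21 of the 293 entries of the table and 20 different genes, since the cathelicidin gene Camp stood in both lists. In each entry the cells of a cluster are set against all other cells, over the pooled mice. The genes were picked from the same cells that were clustered, so the values are a description of the clusters and no test of them.

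Marrow was taken from 9 C57BL/KaLwRij mice aged 12 weeks, a strain in which the syngeneic myeloma line 5TGM1 grows and destroys bone. By label, 3 samples belonged to CST6 (recombinant cystatin M/E of the mouse, which blocks cysteine proteases of lysosomes), 3 to PBS (vehicle) and 2 to Control, and 1 sample had no agent label and was left unassigned. The title of 1 PBS sample continues the numbering of the Control samples, so single labels are uncertain, although no value below depends on them. In the study, CST6 and PBS mice carried 5TGM1 cells and Control mice did not, and the cells measured were mononuclear cells from a Ficoll gradient from which GFP-marked 5TGM1 cells had been sorted out. A Ficoll gradient holds back many ripe granulocytes, so the neutrophils counted here are those that stayed in the light fraction. Values per mouse were not analysed here, because the table holds 0 columns with values of single samples, and neither a replicate error nor an effect of tumor or CST6 can be given.

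Neutrophils form in the marrow in a fixed order. Promyelocytes fill primary granules with enzymes such as elastase and myeloperoxidase, myelocytes then fill secondary granules with cathelicidin, lactoferrin and related proteins, and cell division ends at about that stage. Genes of DNA replication are switched on at the G1/S border by E2F factors, while genes of mitosis peak in G2 and M phase and often carry a cell cycle homology region near their start of transcription, which binds complexes that hold these genes silent in resting cells and turn them on before division. C/EBP epsilon, encoded by Cebpe, is the factor that drives secondary granule genes in late granulocyte precursors.

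Promoters of 9 of the listed genes are shown first, with short motifs in capitals. They were chosen because they hold a match to the motif of their functional group, so they do not stand for all members. Cenpe, a mitosis gene of cluster II without TTTGAA, is not shown, nor are the granule genes Camp and Chil3, which hold it. Each stretch runs from 150 bases before the start of transcription to 30 bases from it on, 180 bases in all, on the gene's own strand, taken from RefSeq promoters of assembly GRCm38.p6, the assembly known as mm10. In the first 5, which are 5 of the 6 mitosis genes of cluster II, capitals mark the cell cycle homology region TTTGAA. They are Cenpf (chr1:189688057-189688236, minus strand), Hmmr (chr11:40733408-40733587, minus), Kif20b (chr19:34922208-34922387, plus), Cdc20 (chr4:118437314-118437493, minus) and Cenpa (chr5:30666736-30666915, plus).
Cenpf: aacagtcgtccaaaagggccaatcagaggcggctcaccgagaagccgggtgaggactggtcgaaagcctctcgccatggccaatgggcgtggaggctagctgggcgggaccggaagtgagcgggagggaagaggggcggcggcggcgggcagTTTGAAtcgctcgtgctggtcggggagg
Hmmr: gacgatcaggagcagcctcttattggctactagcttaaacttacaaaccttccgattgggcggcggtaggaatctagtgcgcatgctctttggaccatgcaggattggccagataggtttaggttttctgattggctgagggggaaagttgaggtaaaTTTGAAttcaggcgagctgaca
Kif20b: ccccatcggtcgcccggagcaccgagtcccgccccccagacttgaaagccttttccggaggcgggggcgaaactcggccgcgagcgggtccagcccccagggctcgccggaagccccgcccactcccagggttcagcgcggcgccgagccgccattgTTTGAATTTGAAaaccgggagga
Cdc20: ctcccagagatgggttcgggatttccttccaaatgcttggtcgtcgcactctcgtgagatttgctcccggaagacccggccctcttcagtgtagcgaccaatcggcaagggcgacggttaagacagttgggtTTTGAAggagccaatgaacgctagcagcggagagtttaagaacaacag
Cenpa: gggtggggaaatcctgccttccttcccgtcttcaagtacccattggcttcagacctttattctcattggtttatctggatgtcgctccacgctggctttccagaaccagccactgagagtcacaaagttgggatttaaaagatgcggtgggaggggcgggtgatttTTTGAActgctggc
In the promoters of the cluster III genes Cdc25a (chr9:109875429-109875608, plus) and Lig1 (chr7:13278676-13278855, plus, 1 of 3 starts), capitals mark the E2F core TTTCGCG or TTTGGCG on either strand. The last capitals of Lig1 are the beginning of a match that runs past the printed stretch.
Cdc25a: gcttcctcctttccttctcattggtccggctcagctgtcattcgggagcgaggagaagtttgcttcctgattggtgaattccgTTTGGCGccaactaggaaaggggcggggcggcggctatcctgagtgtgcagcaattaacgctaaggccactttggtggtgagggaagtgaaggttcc
Lig1: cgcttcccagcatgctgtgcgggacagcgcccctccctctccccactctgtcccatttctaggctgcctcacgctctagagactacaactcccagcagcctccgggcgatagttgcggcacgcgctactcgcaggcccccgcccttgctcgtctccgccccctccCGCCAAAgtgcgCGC
In the granule genes Fcnb of cluster III (chr2:28084849-28085028, minus) and Ngp of cluster II (chr9:110419658-110419837, plus), capitals mark the C/EBP core TTGCNNAA on either strand, where N is any base.
Fcnb: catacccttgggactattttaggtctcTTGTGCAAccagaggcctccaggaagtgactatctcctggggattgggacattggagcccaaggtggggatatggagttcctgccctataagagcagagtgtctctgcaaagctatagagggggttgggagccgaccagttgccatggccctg
Ngp: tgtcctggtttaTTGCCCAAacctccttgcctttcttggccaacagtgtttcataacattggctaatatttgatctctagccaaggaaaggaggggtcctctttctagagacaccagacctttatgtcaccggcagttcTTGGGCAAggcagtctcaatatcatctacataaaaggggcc

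Cluster II was marked by genes of mitosis. Of its 15 genes, 6 belong to the G2/M list of 54 genes, namely Cenpf, Hmmr, Kif20b, Cenpe, Cenpa and Cdc20, which is 40% of its entries against 2.94% (8 of 272) of the entries of all populations other than cluster II and cluster III. None of these 6 was listed for another population, which held for most entries of the table. The 5 other G2/M genes of the table, Birc5, Kif11, Mki67, Tmpo and Top2a, stood in Monocyte prog. I, and 3 of them also in Immature Neutrophils I. Cluster III had 0 genes of this list, but with its few entries and a share of 2.94% elsewhere this does not set it apart. The list was chosen with earlier results of these data known, and Cenpf and Hmmr are among the markers given for these clusters. These shares are therefore a description only.

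Cenpf, which codes for a protein of the outer kinetochore, led cluster II. It had a value above 0 in 99.1% of cluster II cells and in 82.8% of all other cells, and its log2 fold change over all other cells was 2.16. Its area under the receiver operating characteristic curve (AUC) was 0.922, a score that reaches 1 where the level of the gene alone parts the cluster from all other cells. Cenpf was the only one of the 15 genes with a log2 fold change over 2.

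Hmmr, a spindle protein also known as a hyaluronan receptor, had a value in 96.3% of cluster II cells and 67.9% of other cells (log2 fold change 1.53, AUC 0.882). Kif20b, a kinesin needed in cytokinesis, had a value in 97.5% of cluster II cells and 68.5% of other cells (1.31, AUC 0.876). These were the widest gaps in the share of cells among the 6 mitosis genes, with 28.4 and 29.0 percentage points. Cenpe, the kinesin that moves chromosomes to the spindle equator, had a value in 98.3% of cluster II cells against 79.0% of other cells. Its log2 fold change was 1.49. Cenpa, the histone H3 variant of centromeres, had a value in 96.5% against 76.8% (1.37). Cdc20, which activates the anaphase-promoting complex, had a value in 89.9% against 69.9% (1.38). Cdc20 thus had the lowest share inside cluster II of all 15 genes.

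Beside mitosis genes, cluster II listed 5 genes of granule and cytosolic defense proteins, and each of these 5 had a value above 0 in 100% of its cells. The share was also 100% for Camp, Ngp and Chil3 in Immature Neutrophils I and for Camp, Ngp, S100a8 and S100a9 in Mature Neutrophils I. Camp, the precursor of the antimicrobial peptide cathelicidin, had a value in 85.0% of all other cells and a log2 fold change of 1.68 (AUC 0.888). Ngp, which codes for neutrophilic granule protein, stood at 82.4% of other cells and 1.35, and Chil3, a chitinase-like protein of mouse secondary granules, at 82.5% and 1.27. S100a8 and S100a9, the subunits of calprotectin, had values in 92.1% and 95.4% of other cells, with log2 fold changes of 1.30 and 1.28. The gap in the share of cells was 7.9 percentage points for S100a8 and 4.6 for S100a9, the smallest of all 293 entries, because most other cells had a value too.

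The widest gap in cluster II belonged to Cebpe, with a value in 96.7% of its cells and 63.6% of other cells (33.1 percentage points, log2 fold change 1.35). Inhba codes for a subunit of activin A and inhibin A. It had a value in 92.9% of cluster II cells and 61.6% of other cells (1.34). Tuba4a, an alpha-tubulin, had a value in 98.7% and 77.8% (1.34). Arl6ip1, a membrane protein that shapes the endoplasmic reticulum, had a value in 99.1% and 82.6% (1.38). Inhba, Tuba4a and Arl6ip1 were listed for cluster II alone and belong to none of the 15 gene lists.

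Cluster III had a short list led by Fcnb. This gene codes for ficolin B, a lectin of the granules of mouse neutrophil precursors, and had a value in 99.4% of cluster III cells against 68.9% of all other cells. Its log2 fold change was 2.61 and its AUC 0.940, both the highest of the 21 entries. The next gene, Camp, had a value in 100% of cluster III cells and 85.1% of other cells, with a log2 fold change of 1.61 and an AUC of 0.874. The 4 genes below it lay close together, at log2 fold changes from 1.29 to 1.35 and an AUC of at most 0.819.

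Of these 4, Cdc25a and Lig1 belong to the list of DNA replication and G1/S genes. Cdc25a is the phosphatase that frees cyclin-dependent kinase for entry into S phase. It had a value in 93.2% of cluster III cells and 72.9% of other cells (log2 fold change 1.35). Lig1, the DNA ligase that joins the fragments of the lagging strand, had a value in 92.0% and 71.4% (1.30). They make up 2 of the 3 genes of that list (39 genes) that the table holds at all, the other being Mcm3 in Monocyte prog. II, so this list took 33.3% of the entries of cluster III and 0.368% (1 of 272) of the entries outside both clusters. Cluster II had none, which at a share of 0.368% elsewhere does not set it apart. The list was chosen with earlier results of these data known, and Cdc25a is among the markers given for these clusters. These shares are therefore a description only. The 2 others were Lta4h, the enzyme that makes the chemoattractant leukotriene B4, with a value in 98.2% of cluster III cells and 79.4% of other cells (1.29), and Cd63, a membrane protein of primary granules and lysosomes, with 92.9% and 64.6% (1.33).

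**Figure D1:**
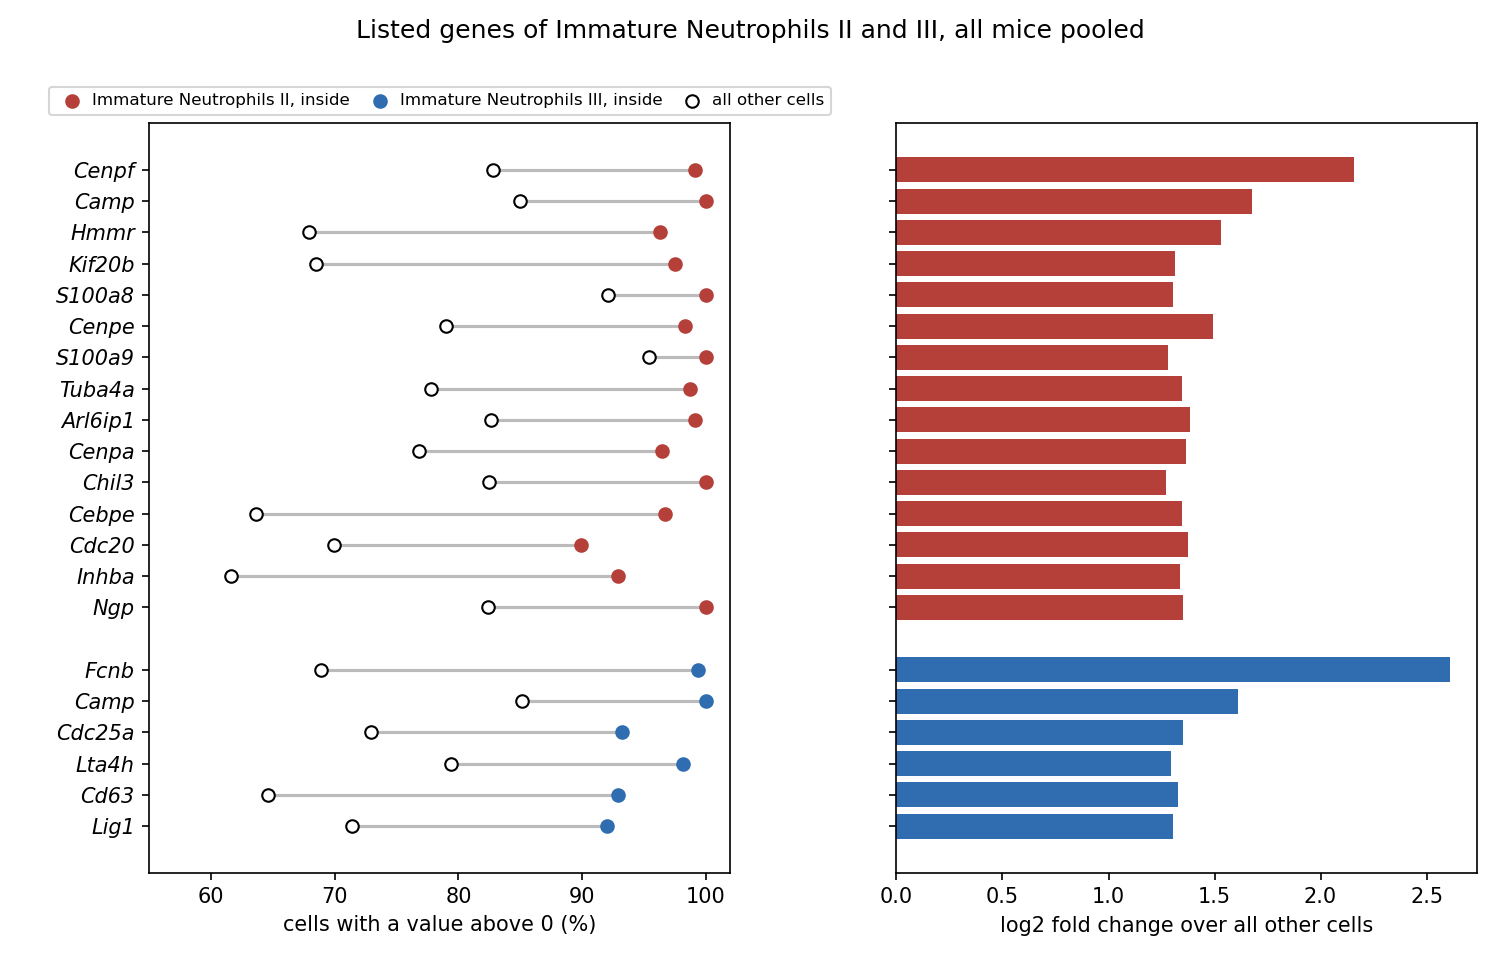
Left, the percentage of cells with a value above 0 inside cluster II (red) or cluster III (blue) and among all other cells (open circles); right, bars of the deposited log2 fold change over all other cells, for each of the 21 entries in order of AUC. Shares inside the clusters lie between 89.9% and 100%, shares among other cells between 61.6% and 95.4%, and Cenpf at 2.16 and Fcnb at 2.61 exceed the other genes of their clusters.

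By the medians of their listed genes, both clusters were set apart weakly beside the other populations of the table. The median log2 fold change was 1.35 for cluster II (range 1.27 to 2.16) and 1.34 for cluster III (1.29 to 2.61), against 2.14 over the 272 other entries, and these were the lowest of the 17 medians. The median gap in the share of cells was 19.3 percentage points in cluster II and 20.5 in cluster III, against 28.9 over the 272 other entries, again the lowest of all populations. Among other cells, the median share with a value was also highest for cluster II, at 79.0%, where cluster III had 72.2% and the 272 other entries 66.4%. This was not particular to the 2 clusters. The median gap was 21.0 percentage points in Immature Neutrophils I and 20.7 in Mature Neutrophils I. Their median shares among other cells were 74.7% and 78.5%, and their median log2 fold changes 1.52 and 1.71. Mature Neutrophils II lay further off, with a gap of 25.9 and a log2 fold change of 2.04. The other cells against which each cluster was set include the 4 remaining neutrophil populations. Both lists ended before the 20 entries that the table allows, at an AUC of 0.817 in cluster II and 0.803 in cluster III. As neither list was full, a gene that is not listed for a cluster was not displaced by others. The rule that left it out is not given, and its own values are not known.

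By count, the 2 clusters shared fewer listed genes with each other than with Immature Neutrophils I, another immature population with 15 entries. Cluster III had only 6 entries, which limits how many genes it can share, so these counts do not rank the likeness of the populations. Camp was the only gene that clusters II and III shared, 6.67% of the list of cluster II and 16.7% of that of cluster III. Cluster II shared 4 genes with Immature Neutrophils I (Camp, Cebpe, Chil3 and Ngp, 26.7% of each list) and 4 with Mature Neutrophils I (Camp, Ngp, S100a8 and S100a9, 26.7% of each). Cluster III shared Camp and Fcnb with Immature Neutrophils I (33.3% of its own list and 13.3% of the other) and Cd63 with Myeloid prog and Eosinophil/Basophil Prog. Neither shared a gene with Mature Neutrophils II. In cluster II 9 genes (60%) and in cluster III 3 genes (50%) were listed nowhere else. Over the whole table, 50 of 234 different genes were listed for several populations, in 109 of 293 entries. Most entries of the table were thus listed for a single population, and these shares do not set the clusters apart.

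Gene lists of other stages of the lineage and of other cell types, also chosen with earlier results of these data known, were counted over the same entries. The secondary granule list (12 genes) gave 3 entries to cluster II (20%) and 2 to cluster III (33.3%), against 4.78% of the 272 other entries, with 4 in Immature Neutrophils I, 7 in Mature Neutrophils I and 2 in Mature Neutrophils II. Of the 10 primary granule genes, cluster III listed Cd63 (1 of 6 entries) and cluster II none, where the list took 5.15% (14 of 272) of the other entries. Both clusters had 0 entries of the 18 mature neutrophil genes and of the 22 histone genes, which took 3.68% (10 of 272) and 3.31% (9 of 272) of the other entries. With pooled shares this low and only 21 entries, these counts do not set the clusters apart from the table as a whole. The entries were not spread evenly. Mature Neutrophils II held 8 of the 10 mature neutrophil entries, and Immature Neutrophils I held 5 of the 9 histone entries among its 15 genes. The calprotectin genes S100a8 and S100a9, which form a list of their own, stood in cluster II and in Mature Neutrophils I. The S phase list (43 genes) and the erythroid list had 0 entries in the whole table, so their absence here says nothing of the clusters. The 49 genes of the 6 lists for other cell types (monocyte and macrophage, B cell, T and NK cell, dendritic cell, erythroid, eosinophil and basophil) gave 0 entries to both clusters, against 16.2% (44 of 272) of the other entries. Immature Neutrophils I and both mature neutrophil populations also had 0 entries of these lists. The count therefore does not set the clusters apart from other neutrophils. The markers given for the clusters, Cenpf, Hmmr, Camp, Fcnb and Cdc25a, are themselves among the 21 entries, so they cannot serve as a check of the names.

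The sizes of the clusters can be worked out from the deposited shares. A gene listed for several populations has a single share over all cells, and that share equals the share among the other cells plus the cluster's size times the gap between inside and outside. The table holds 50 such genes with 109 entries, and sizes of the 17 populations that add up to all cells met all of these equations within the rounding of the shares (a deviation of 0.0355 percentage points was enough, where rounding allows 0.05). On this basis cluster II held 2.60% to 4.27% of all cells and cluster III 2.17% to 3.26%, over all mice together. These bounds cover rounding only, and because they overlap, the order of the 2 clusters is not fixed. Immature Neutrophils I was larger, with 12.0% to 13.1%.

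Clusters II and III together held 5.08% to 7.32% of all cells, while the 5 neutrophil populations held 42.8% to 49.1%. Among neutrophils, cluster II took 5.87% to 8.97% and cluster III 4.74% to 7.03%. Among the 3 immature populations, cluster II took 15.2% to 21.1% and cluster III 12.1% to 16.6%, so most immature cells belonged to Immature Neutrophils I. Shares by mouse or by group cannot be drawn from pooled values, and no source used here says how doublets were handled.

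**Figure D2:**
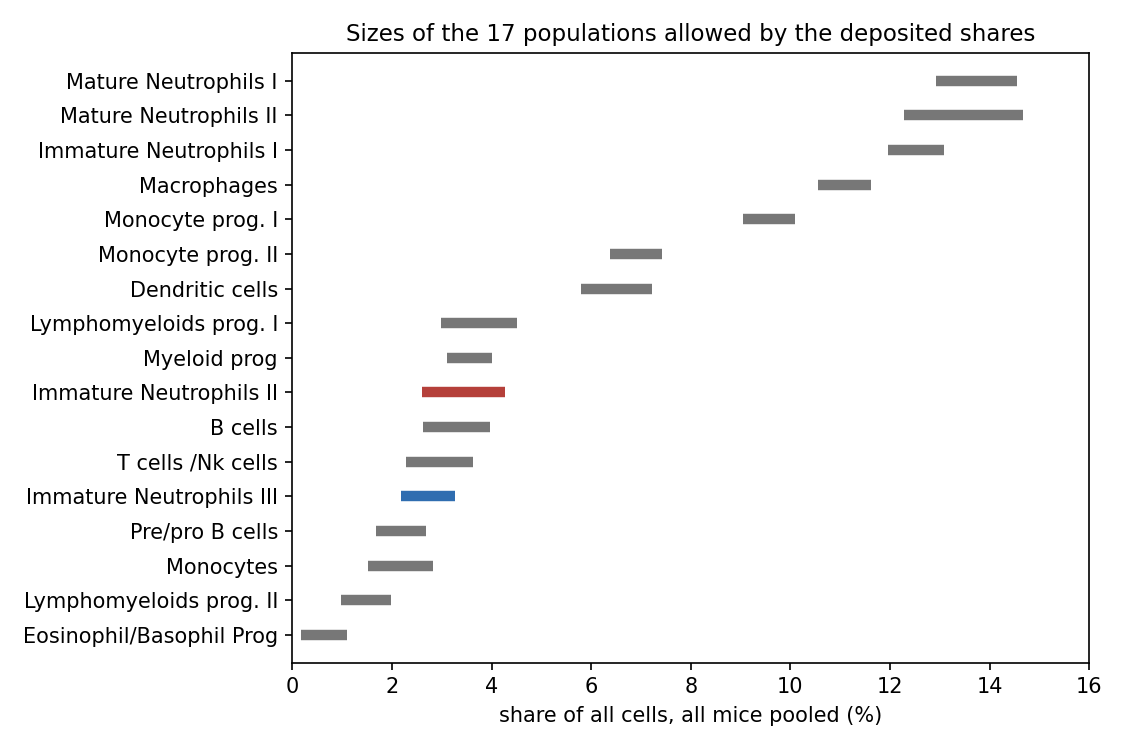
Bars span the lowest and highest size, as a percentage of all cells of all mice, that the deposited shares allow for each of the 17 populations; cluster II is red, cluster III blue and the others grey. Cluster II (2.60% to 4.27%) and cluster III (2.17% to 3.26%) overlap and lie far below the 3 larger neutrophil populations at 12.0% and more.

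These sizes bear on how the shared granule genes compare between neutrophil populations. A deposited fold change sets a population against the cells outside it, and for a large population these hold fewer neutrophils, so fold changes of a small and a large population have different bases. Each was therefore also expressed over the mean of all cells, which is the same base for all populations. This assumes that the fold change is a ratio of means over cells, with any constant added to the means counted as part of the level. No source used here says whether the fold changes were taken from UMI-based or from integrated values, and for integrated values the computed levels would have no such meaning. The bounds again cover rounding only. The step lowers the values by an amount set by the size of the population and the fold change alone. It was 0.068 to 0.16 on the log2 scale for the genes of cluster II and 0.056 to 0.19 for those of cluster III, against 0.27 to 0.42 for the shared genes in Immature Neutrophils I and 0.32 to 0.46 in Mature Neutrophils I.

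For Camp, the deposited log2 fold change was 1.68 in cluster II and 1.61 in cluster III, against 1.84 in Immature Neutrophils I and 1.71 in Mature Neutrophils I. Over the mean of all cells, the log2 level was 1.55 to 1.60 in cluster II and 1.52 to 1.55 in cluster III, against 1.42 to 1.45 in Immature Neutrophils I and 1.30 to 1.34 in Mature Neutrophils I. The order of the populations thus turned, and both clusters stood above the 2 larger populations. The difference between clusters II and III ran from -0.0028 to 0.077 and its sign was not fixed.

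Fcnb separated cluster III most clearly on both bases. Its deposited log2 fold change was 2.61 in cluster III and 1.90 in Immature Neutrophils I, and its log2 level over all cells was 2.39 to 2.46 in cluster III and 1.46 to 1.49 in Immature Neutrophils I. This is a difference of 0.90 to 1.00 on the log2 scale. It was not among the listed genes of cluster II.

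Cebpe had a deposited log2 fold change of 1.35 in cluster II and 1.42 in Immature Neutrophils I. Over all cells its log2 level was 1.25 to 1.29 in cluster II and 1.13 to 1.16 in Immature Neutrophils I, so the order turned here too. S100a8 stood at 1.22 to 1.25 in cluster II and 1.16 to 1.20 in Mature Neutrophils I, and S100a9 at 1.20 to 1.23 in cluster II and 1.14 to 1.18 in Mature Neutrophils I. The deposited log2 fold changes differed the other way, by -0.20 for S100a8 and -0.19 for S100a9 (cluster II minus Mature Neutrophils I). With an allowance of 0.1 percentage points in place of 0.05, the bounds of both calprotectin differences included 0.

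Chil3 against Immature Neutrophils I and Ngp against Mature Neutrophils I kept the order of the deposited values. Chil3 had a log2 level over all cells of 1.19 to 1.22 in cluster II and 1.30 to 1.33 in Immature Neutrophils I. Ngp had 1.26 to 1.29 in cluster II and 1.41 to 1.46 in Mature Neutrophils I, and the sign of its difference from Immature Neutrophils I (1.23 to 1.26) was not fixed by the bounds. In all, 12 comparisons of a shared gene with another neutrophil population were possible. The deposited fold change was lower in cluster II or III in 10 of them, counting the comparison of Camp between the clusters as cluster II minus cluster III. Over the mean of all cells the difference was below 0 in 2 and above 0 at both bounds in 8, and the order turned in 8, in 7 of them with a sign that rounding could not change. These turns come from the same few shifts by population size, repeated over genes, and are not separate results.

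**Figure D3:**
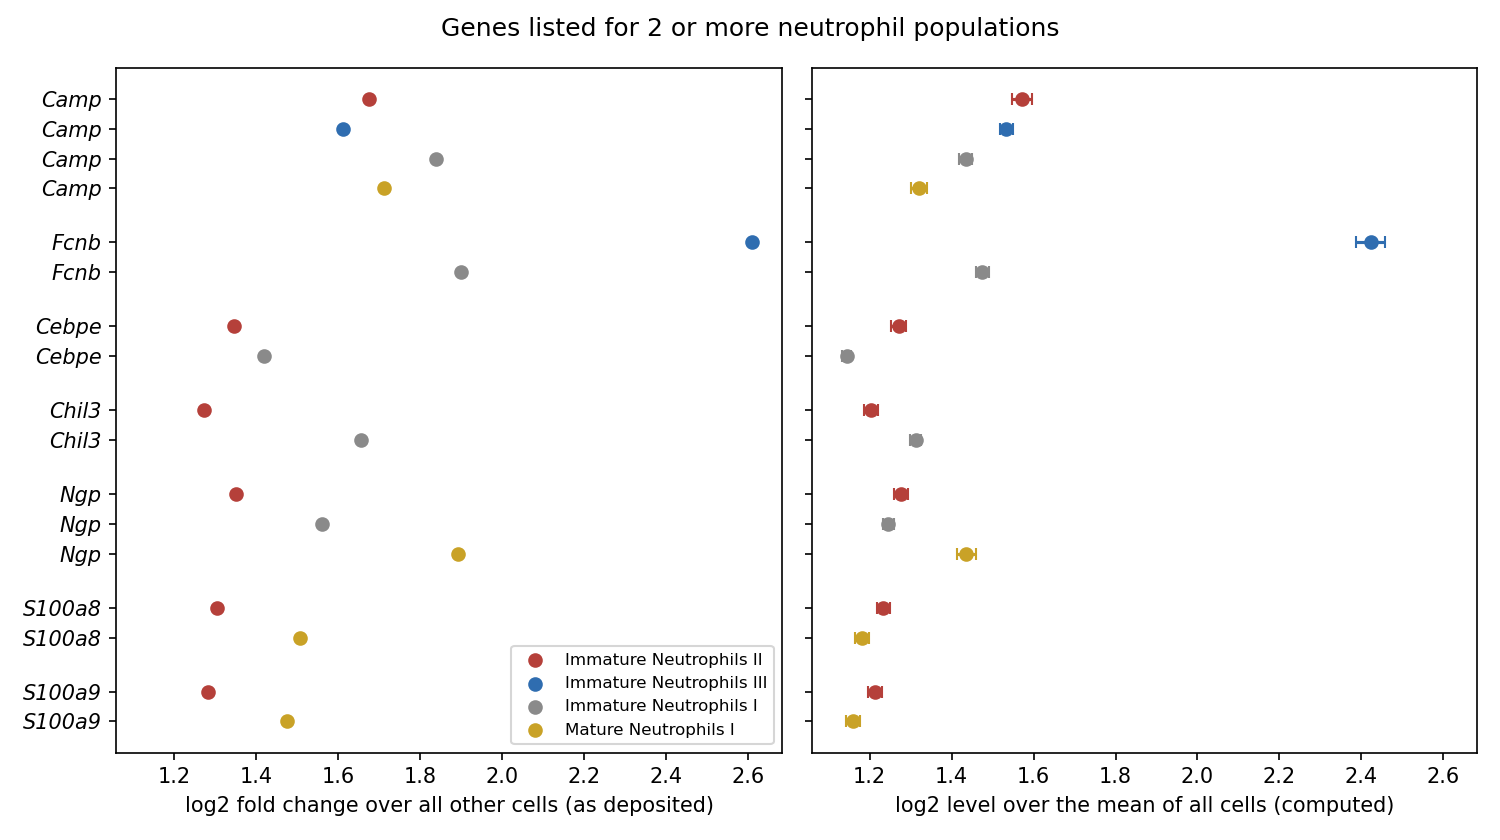
Log2 values of the 7 genes that cluster II (red) or cluster III (blue) shares with Immature Neutrophils I (grey) or Mature Neutrophils I (yellow), left as the deposited fold change over all other cells and right as the computed level over the mean of all cells, where bars span the bounds from rounding. Camp is lower in both clusters than in the 2 larger populations on the left (1.68 and 1.61 against 1.84 and 1.71) and higher on the right (at least 1.52 against at most 1.45).

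Cd63 was shared with progenitors and was lower in cluster III than in both of them. Its log2 level over all cells was 1.26 to 1.28 in cluster III, against 1.75 to 1.79 in Myeloid prog and 2.75 to 2.83 in Eosinophil/Basophil Prog. The deposited fold changes gave the same order, with 1.33 in cluster III, 1.90 in Myeloid prog and 2.84 in Eosinophil/Basophil Prog.

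The shares of cells with a value need care, since they were high far outside the neutrophils. Outside the 4 populations that list it, Camp had a value in 78.0% to 79.1% of cells, and even if all cells of Mature Neutrophils II had a value, at least 71.7% of the cells of the 12 other populations had one. The same lower limit was 85.1% for S100a8, 91.3% for S100a9, 67.0% for Chil3, 66.8% for Ngp, 42.4% for Fcnb and 32.4% for Cebpe. These 12 populations include progenitors as well as B, T and dendritic cells. A value above 0 is therefore not read here as expression of the gene in that cell. This holds for the mitosis genes too, of which Cenpf had a value in 82.8% of the cells outside cluster II. Free RNA in the droplets and batch-integrated values were not tested as sources of these values, and no source used here says from which values the shares were taken.

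Motif matches were counted in the promoters of the listed genes beside all promoters of the same length. Promoters of 300 bases (250 before the start and 50 from it on) were matched by symbol for 19 of the 20 genes, all but Cebpe, and searched on both strands. TTTGAA was found in 5 of the 6 mitosis genes of cluster II (83.3%), against 20.2% of all 27025 genes with a promoter in the RefSeq table. It began at base 3 from the start of transcription in Cenpf, base 9 in Hmmr, bases 8 and 14 in Kif20b, where the 2 copies are joined end to end, base 17 in Cenpa and 18 bases before the start in Cdc20, in each case on the gene's own strand. Within 50 bases on either side of the start, a window chosen after these positions were seen, it was found in the same 5 genes and in 5.72% of all genes. Of the 6 granule and calprotectin genes, Camp and Chil3 had a match, 56 and 36 bases before the start. Cenpe had no match, and it was among the 5 of 6 mitosis genes with a CCAAT box, the letters CCAAT, which 41.1% of all genes had.

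The E2F core TTTCGCG or TTTGGCG was found in Cdc25a and Lig1 of cluster III and in 0 of the 6 mitosis genes, against 2.68% of all genes. Arl6ip1 of cluster II also had a match, 13 bases before its start. The C/EBP core TTGCNNAA was found in 3 of the 6 granule and calprotectin genes, Fcnb, Ngp and S100a9, against 12.2% of all genes, and also in Inhba. The full palindrome TTGCGCAA, which is contained in that core, was found in 0 of 19 members and 0.207% of all genes. A match of such short letters describes a sequence and does not show that a factor binds there, and no test was made on so few genes.

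**Figure D4:**
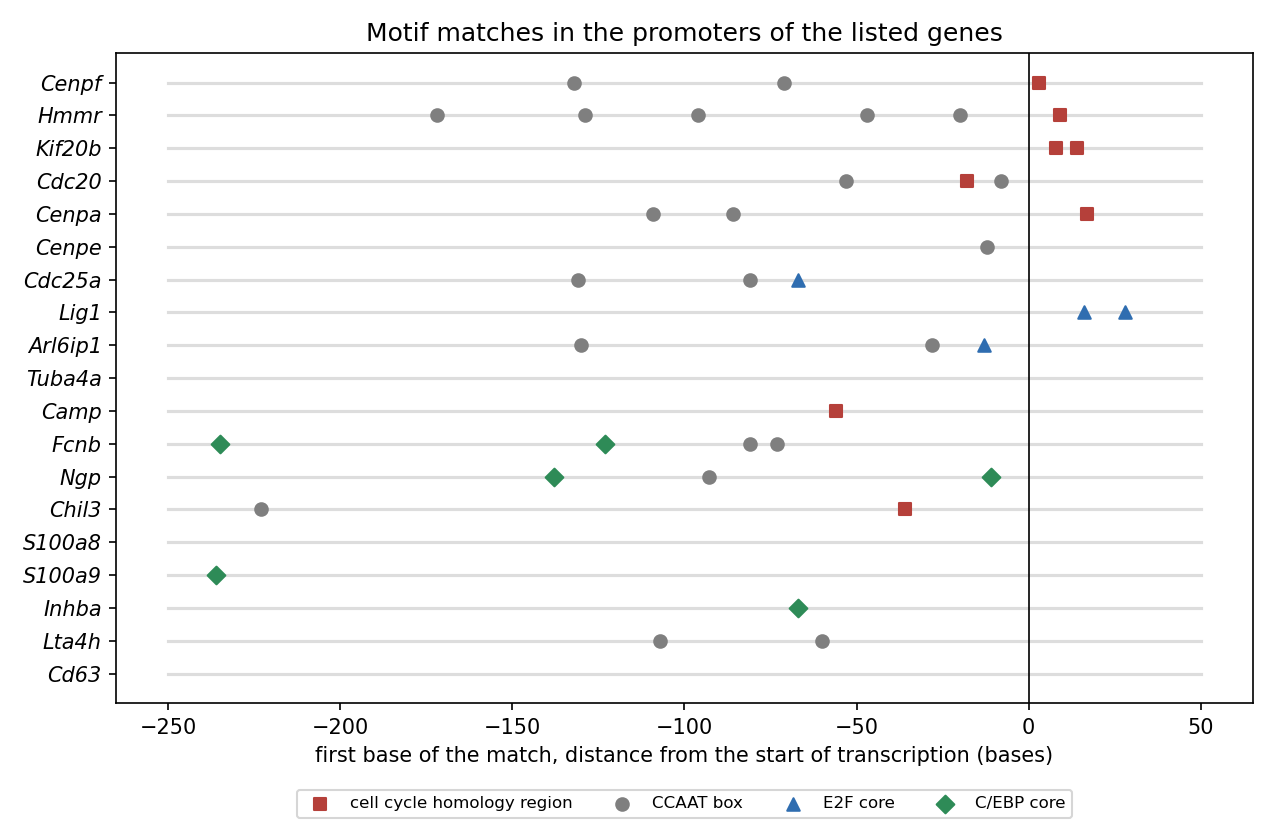
Position of the first base of each motif match, in bases from the start of transcription (vertical line), in the promoters of 19 listed genes; squares mark TTTGAA, circles CCAAT, triangles the E2F core and diamonds the C/EBP core. Squares of 5 mitosis genes lie between 18 bases before the start and base 17 from it on, and triangles are present in Cdc25a, Lig1 and Arl6ip1.

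In mm10, Cenpf spans bases 189640606 to 189688107 of chromosome 1 and Hmmr 40701388 to 40733464 of chromosome 11. Fcnb spans 28076479 to 28084910 of chromosome 2, Lig1 13277175 to 13311426 of chromosome 7 and Cebpe 54710363 to 54712174 of chromosome 14. Camp (109847377 to 109849456) and Cdc25a (109875518 to 109893895) lie on chromosome 9. All 20 genes are annotated as protein-coding.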

How the data were processed

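Droplet-based single-cell RNA-Seq was run on marrow of 9 mice. Per the submitters' processing notes, Cell Ranger, the mm10 genome and Seurat 4 were used, and the study's methods describe filtering, integration across samples and Louvain clustering. The methods name MAST for the marker search, whereas the deposited table holds the AUC score of a receiver operating characteristic search, the log2 fold change and the shares of cells with a value, all computed by the authors over pooled mice. These are the columns of the authors' own comparison and were used as descriptions only. It has 0 columns with values of single samples, so neither depth nor the number of cells behind an entry can be read from it, and neither error nor test is given.

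All entries of Immature Neutrophils II and III were named, with other genes only where they share an entry or a gene list with them. The members, the 15 gene lists and the motifs were chosen with earlier results of these data known. Population sizes came from linear programming (SciPy 1.17.1, Python 3.11.15) over genes listed at least 2 times, with a rounding allowance of 0.0005 on each deposited fraction, tested on simulated data. Promoters and gene positions came from RefSeq. Alternatives were an AUC minimum of 0.85, only genes that no other neutrophil population lists, a rounding allowance of 0.001 and leaving out Camp. For level differences, these were added after the data were seen.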

Additional observations from a re-analysis of the deposited data

How the results depend on the processing

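With only the entries of an AUC of at least 0.85, the median log2 fold change of cluster III was 2.11 in place of 1.34, since Fcnb and Camp were the 2 genes left. Under that setting 4 of the 6 mitosis genes of cluster II remained, Camp was still the 1 gene shared by both clusters, and the other medians moved by less than the spread among genes. With a rounding allowance of 0.001, cluster II could hold 1.61% to 5.27% and cluster III 1.44% to 4.03% of all cells. The differences in level over all cells then kept the sign of their middle value, but the bounds of S100a8 and S100a9 between cluster II and Mature Neutrophils I ran from -0.022 to 0.13 and from -0.019 to 0.13. Without Camp, cluster II held 2.60% to 4.31% and cluster III 2.13% to 3.26%. No paired analysis was possible because the table pools all mice, and for the same reason no replicate could be left out. Bounds cover rounding only, depth per cell cannot be read from the table, and no value has a replicate error.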

Other observations

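Several members are neighbours in the genome. Camp and Cdc25a, the granule gene of both clusters and a G1/S gene of cluster III, lie 26.1 kb apart on chromosome 9 of mm10, with 1 gene and no protein-coding gene between them. Ngp, of cluster II, lies 526 kb beyond Cdc25a on the same chromosome, with 15 genes between them, 7 of them protein-coding. S100a8 and S100a9 lie 22.6 kb apart on chromosome 3 with 0 genes between them. Camp was listed for 4 neutrophil populations and Cdc25a for cluster III alone.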
